A study of Arabidopsis thaliana with 3 samples.

Results

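Distal arm regions of SOB3-GFP are places on the chromosome arms of Arabidopsis thaliana where the fusion protein was enriched in both replicates and where the summit lay more than 1000 bp from any protein-coding gene. SOB3 is an AT-hook protein that represses growth of the seedling stem and the petiole. Chromatin came from whole Col-0 plants aged 14 days that lacked functional endogenous SOB3 (the sob3-4 background) and carried SOB3-GFP driven by the SOB3 promoter, collected at ZT4, that is 4 h into a day of 16 h light and 8 h dark at 22 °C. The study had 2 anti-GFP precipitations of this line and 1 input library without antibody, and no other genotype or treatment. Each precipitation had its own peak list, with 9980 peaks in replicate 1 and 4788 in replicate 2. Peaks of the lists that overlapped by at least 1 bp were joined, which gave 3823 shared regions, of which 2875 lay on the arms. A total of 683 were distal, or 23.8% of the arm regions (exact 95% interval 22.2% to 25.4%). The other arm regions had their summit inside a protein-coding gene (583), 1 to 250 bp outside (747) or more than 250 and up to 1000 bp outside (862), and 948 lay in the pericentromeres. Distance classes below include their upper bound and not their lower.

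AT-hook proteins reach into the minor groove of A+T-rich DNA, and plants have a family of them, the AHL proteins, that also carry a PPC domain with which they bind each other and other nuclear proteins. SOB3 and its relatives act largely as repressors of growth genes, against the phytochrome-interacting factors (PIFs), which drive elongation. Arabidopsis genes stand close together, so a place more than 1000 bp from every protein-coding gene needs a gap of more than 2000 bp between neighbours. No sequence of these regions was analysed here, so their base composition and motifs are not described.

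All values are from 2 replicates of 1 group. Nothing in the labels ties the replicates to separate plantings, so the spread between their values may be technical. No test between groups was possible, and regions are not replicates, so the classes are compared by their values in each replicate, without p-values. Intervals on shares and densities cover counting error alone. The depth of the libraries is not given by peak lists. Signal from plants without the fusion was not analysed here. Fold is the authors' own value, the enrichment that the peak caller wrote for the summit of a peak.

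Distal regions had median folds close to those of the other arm classes in replicate 2 and between them in replicate 1. In replicate 1 the distal fold ranged from 1.64 to 8.82, with a median of 2.95 and quartiles of 2.44 and 3.77. In replicate 2 it ranged from 1.65 to 6.60, with a median of 2.50 and quartiles of 2.25 and 2.84. The regions 250 to 1000 bp outside genes had medians of 2.86 and 2.50, those 1 to 250 bp outside had 3.15 and 2.55, and those inside genes had 3.12 and 2.50. In replicate 1 the distal median thus lay above that of the regions 250 to 1000 bp outside and below those of the regions nearer to or inside genes, and in replicate 2 the medians of the 4 arm classes ran from 2.50 to 2.55. Pericentromeric regions had a lower median in replicate 1 (2.66) and a higher one in replicate 2 (2.61).

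**Figure D1:**
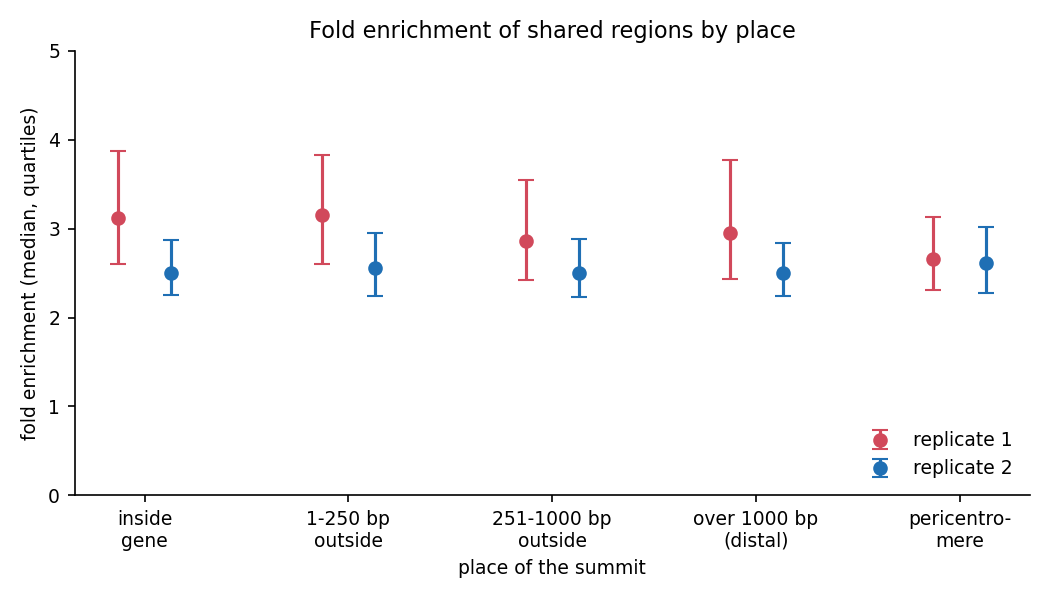
Fold enrichment of the shared regions by the place of the summit, with the median as a point and the quartiles as bars, for replicate 1 (red) and replicate 2 (blue). The distal medians are 2.95 in replicate 1 and 2.50 in replicate 2, and the replicate 1 medians of the arm classes run from 2.86 to 3.15.

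The replicates ranked distal regions only loosely alike. Replicate 1 gave the higher fold at 464 distal regions (67.9%). The share was 66.8% at 250 to 1000 bp, 77.6% at 1 to 250 bp, 76.8% inside genes and 53.5% in the pericentromeres. A fold at least 1.5 times higher occurred in replicate 1 at 168 distal regions (24.6%) and in replicate 2 at 3 (0.439%). Fold exceeded 4 in 138 distal regions in replicate 1 and in 13 in replicate 2. The counts at 1.5 times and over 4 are given for distal regions alone. Over the 683 distal regions, all from the same 2 libraries, Spearman's rho between the folds was 0.32 and Pearson's r between their log2 values was 0.37, which is given as a description. In the other arm classes rho was between 0.34 and 0.39, and in the pericentromeres it was 0.52. The median offset between the replicate 1 and replicate 2 summits was 39 bp, and 406 distal regions (59.4%) had them within 50 bp. In the other classes 55.1% to 61.4% of regions had them that near. A distance of more than 200 bp occurred in 62 distal regions (9.08%), against 6.43% to 9.40% in the other classes. Regions were joined from overlapping peaks, so close summits are partly set by that rule. The median width of a distal region was 487 bp, against 459.5 bp, 438 bp and 465 bp for the classes 250 to 1000 bp outside, 1 to 250 bp outside and inside genes.

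A fold of 3 or more in both replicates was reached by 87 distal regions (12.7%, exact 95% interval 10.3% to 15.5%). Over all 3823 shared regions the share was 15.1%, which lies inside that interval, so the count does not set the distal regions apart. The share was 13.6% at 250 to 1000 bp and 17.9% at 1 to 250 bp.

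The distal region with the highest lower fold lay on chromosome 1 at 24263856 to 24264560 (TAIR10), between CBSX6 (AT1G65320), which encodes a CBS-domain protein, and PHE1 (AT1G65330), an imprinted MADS-box gene known from seeds. Its fold was 6.19 in replicate 1 and 6.60 in replicate 2, and its summits lay 3 bp apart. The replicate 2 value was the highest of that whole peak list. The summit was 1197 bp from CBSX6 and 2062 bp from PHE1.

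The next region lay on chromosome 2 at 8710160 to 8710708, between PIL5 (AT2G20180) and CLASP (AT2G20190), with folds of 6.14 and 4.80. PIL5 is the table's name for PIF1, the phytochrome-interacting factor best known for holding back germination in the dark, and CLASP encodes a microtubule-associated protein of dividing and expanding cells. The summit was 3430 bp from PIL5 and 1140 bp from CLASP. The gap held 2 more distal regions, at 3.66 and 2.39 and at 1.89 and 2.03, so it carried both a very strong and a weak region in each replicate.

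A region on chromosome 5 at 3110633 to 3111255 lay 1121 bp from CYP78A7 (AT5G09970), a cytochrome P450 gene related to the organ-growth gene KLUH, with folds of 4.87 and 4.52. The region on chromosome 1 at 24629760 to 24630523 lay between CLE18 (AT1G66145), a signalling peptide gene, and TMK1 (AT1G66150), a receptor-like kinase gene of auxin signalling, and had folds of 5.53 and 4.04. The region on chromosome 2 at 9520504 to 9521332 lay 5021 bp from HB6 (AT2G22430), a homeodomain leucine-zipper gene of abscisic acid responses, with folds of 6.89 and 3.98. In these 3 regions replicate 1 was the higher, by little at CYP78A7 and by more at HB6.

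The other regions among the 10 strongest lay on chromosome 3 between AT3G01345 and AT3G01350 (6.19 and 4.27), on chromosome 4 between AT4G10650 and AT4G10660 (4.17 and 4.22), on chromosome 3 between AT3G22970 and AT3G22980 (7.24 and 4.07), on chromosome 5 between AT5G53500 and the oligopeptide transporter gene OPT9 (4.13 and 3.99), and on chromosome 3 between AT3G26480 and AT3G26490 (4.04 and 3.89). Of the 10, 8 were higher in replicate 1 and 2 in replicate 2. Their distances to the nearest protein-coding gene ran from 1121 to 5477 bp, and 6 of them had summits less than 15 bp apart between the replicates.

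**Figure D2:**
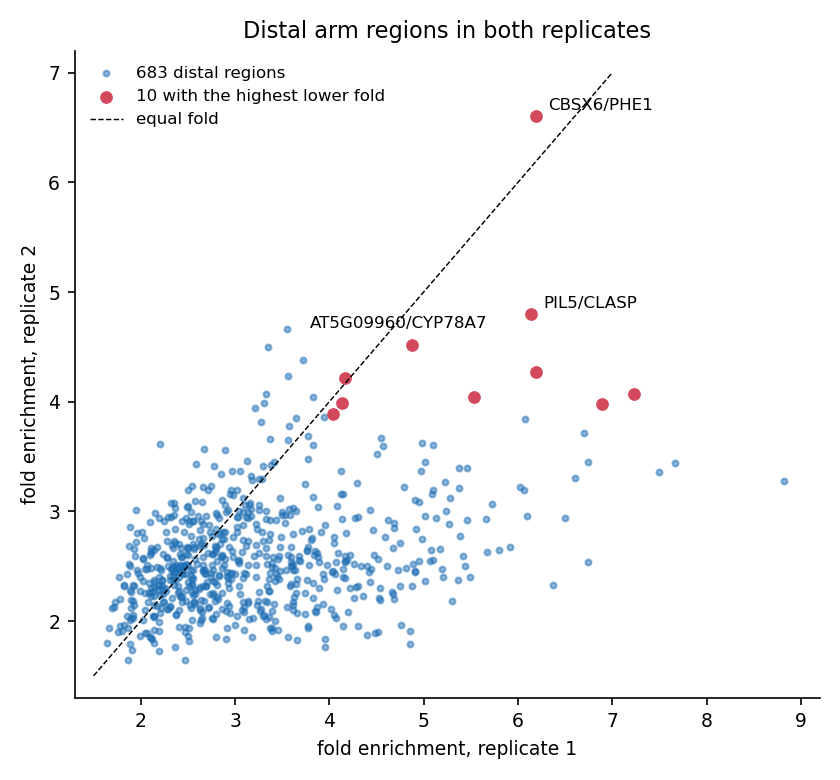
Fold enrichment of each distal region in replicate 1 (horizontal axis) and replicate 2 (vertical axis), with the 10 regions of highest lower fold in red and a dashed line at equal fold. Most points lie below the line, and the region between CBSX6 and PHE1 stands at 6.19 and 6.60.

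Regions were densest next to genes, and among distal regions the density changed little up to 5000 bp from them. The arms held 10.6 Mb of sequence more than 1000 bp from protein-coding genes in the gaps between them, and it carried 64.5 distal regions per Mb (Poisson 95% interval 59.7 to 69.5). The density was 94.7 per Mb (88.0 to 101.8) at 1 to 250 bp outside genes, 72.8 per Mb (68.0 to 77.8) at 250 to 1000 bp, and 10.1 per Mb (9.30 to 10.96) inside genes. Among distal regions it was 64.8 per Mb at 1000 to 1500 bp, 63.0 at 1500 to 2000 bp, 72.0 at 2000 to 3000 bp and 62.4 at 3000 to 5000 bp, and the intervals of these 4 bins overlapped. Beyond 5000 bp it was 42.5 per Mb (27.5 to 62.8), which rests on 25 regions.

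The lists taken singly gave the same order with different steepness. Replicate 1 had 170.8 distal peaks per Mb, against 183.6 at 250 to 1000 bp and 290.6 at 1 to 250 bp. Replicate 2 had 80.2, 92.3 and 106 per Mb in the same classes. The rise next to genes was therefore larger in replicate 1.

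Among distal regions the median fold was not lower at 3000 to 5000 bp than at 1000 to 1500 bp in either replicate. The median folds were 2.86 and 2.47 at 1000 to 1500 bp, 2.90 and 2.47 at 1500 to 2000 bp, 3.10 and 2.55 at 2000 to 3000 bp and 3.13 and 2.51 at 3000 to 5000 bp, in replicates 1 and 2. Beyond 5000 bp they were 2.60 and 2.67, lower in replicate 1 and higher in replicate 2. The regions just past the threshold resembled those just short of it: 55 regions at 1000 to 1100 bp had medians of 2.91 and 2.47, and 82 regions at 900 to 1000 bp had 2.86 and 2.52. The nearest members inside the rule were 1 bp past it beside AT3G15720 (2.84 and 2.70) and 1003 bp from PHO1 (2.19 and 2.33), and the nearest outside it were 1000 bp from AT1G63490 (4.19 and 2.29) and 999 bp from LAZ5 (2.26 and 2.01).

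**Figure D3:**
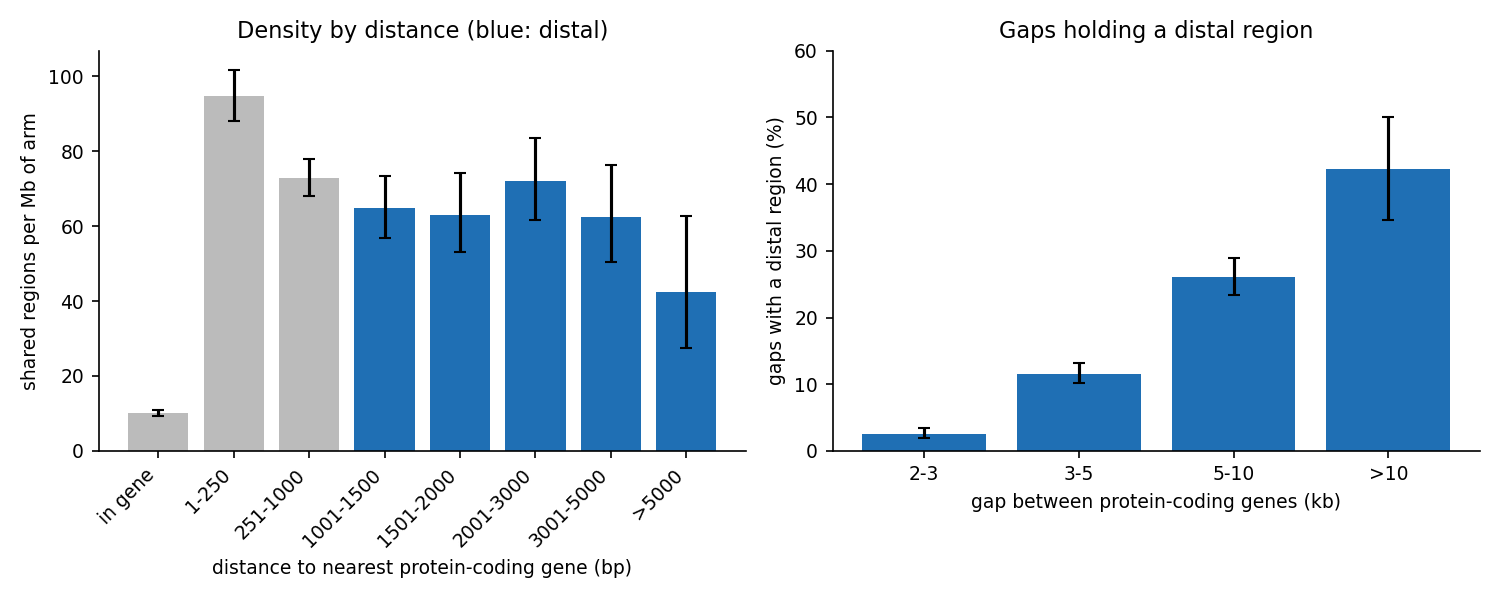
Left, shared regions per Mb of chromosome arm by distance to the nearest protein-coding gene, with exact Poisson 95% intervals (grey for regions in or near genes, blue for distal regions). Right, share of gaps between protein-coding genes that held a distal region, by gap length, with exact binomial 95% intervals; the share rises from 2.59% to 42.3%.

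The distal regions stood a median of 1829 bp from the nearest protein-coding gene (quartiles 1325.5 and 2627 bp), and 294 of them (43.0%) were more than 2000 bp away. They occupied 580 of the 4832 gaps that offered such a place (12%). Among gaps of 2000 to 3000 bp 2.59% held a distal region, among those of 3000 to 5000 bp 11.6%, among those of 5000 to 10000 bp 26.1%, and among longer gaps 42.3%. Longer gaps also offer more sequence, and per Mb of distal sequence the density was 58.8, 66.5, 69.1 and 52.5 in the same order. Of the distal summits, 22.5% lay nearer to an edge of the gap than to its middle, and 21.4% of the distal sequence lies there. Across the chromosomes there were 56.9 regions per Mb on chromosome 4, 63.4 on 5, 63.8 on 2, 64.8 on 1 and 73.4 on 3.

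A gap usually held a single distal region. Of the 580 occupied gaps, 493 held 1, 73 held 2, 12 held 3 and 2 held 4. The gap between AT5G45095 and BRG1 (AT5G45100), a gene related to the RING-finger gene BOI, was 9533 bp long and held 4, with folds of 3.34 and 2.52, 2.86 and 2.74, 6.61 and 3.31, and 6.70 and 3.72 from its lower to its higher coordinate. In both replicates the pair on the BRG1 side was the stronger. The gap between AT5G41401 and BEL1 (AT5G41410), a homeodomain gene of ovule development, was 7746 bp long and also held 4, at 2.77 and 2.24, 5.38 and 3.40, 4.54 and 2.19, and 3.86 and 2.08. The second of these was the highest in both replicates.

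**Figure D4:**
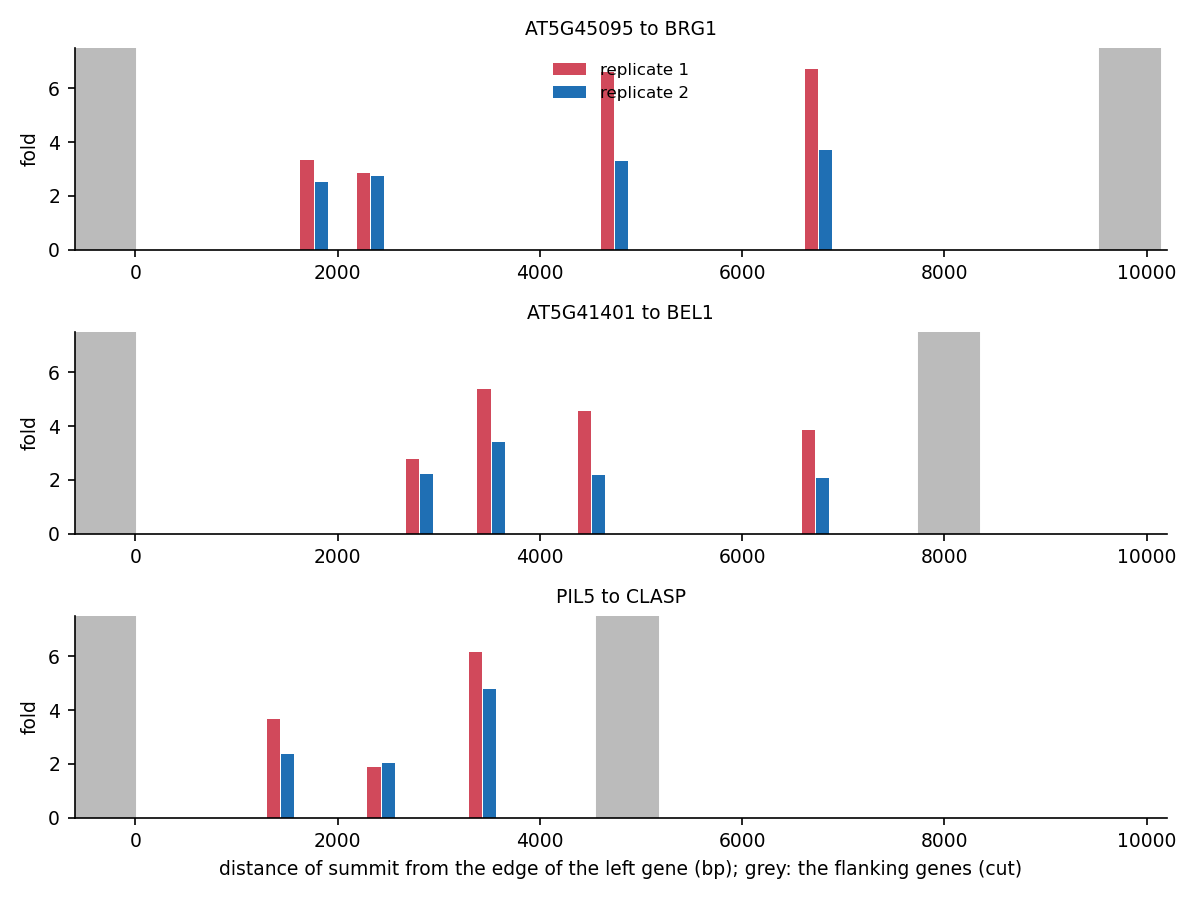
Fold of each distal region in replicate 1 (red) and replicate 2 (blue) against the distance of its summit from the edge of the gene at the lower coordinate, for the 3 gaps with the most regions; grey marks the flanking genes. In the gap next to BRG1 the tallest pair reaches 6.70 and 3.72, and in the gap next to PIL5 it reaches 6.14 and 4.80.

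The most remote regions lay in gaps of 17827 to 21071 bp, with folds between 1.95 and 3.23. The summit farthest from any protein-coding gene was 8909 bp from MRN1 (AT5G42600), the marneral synthase gene of a triterpene gene cluster, and 10744 bp from CYP71A16 (AT5G42590), the marneral oxidase gene of the same cluster. Its folds were 2.47 and 1.95. The next was 8735 bp from AT5G19100, with 2.75 and 3.23, and the third was 7735 bp from GA2OX2 (AT1G30040), a gibberellin-inactivating oxidase gene, with 2.33 and 2.47.

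Annotated genes that do not code for protein played no part in the rule, so their place is a separate readout. Distal summits seldom lay inside them. Such genes and pseudogenes covered 17.2% of the distal arm sequence but held 15 of the 683 summits (2.20%, exact 95% interval 1.23% to 3.60%). The classes nearer to genes also held fewer summits there than sequence, so this is not particular to distal regions. At 250 to 1000 bp these spans covered 7.62% of the sequence and held 21 of 862 summits (2.44%, 1.51% to 3.70%). At 1 to 250 bp they covered 3.28% and held 9 of 747 (1.20%, 0.552% to 2.27%). Pseudogenes alone covered 13.1% of the distal sequence and held 3 summits (0.439%, 0.0907% to 1.28%). Long noncoding RNA genes covered 2.32% and held 8 summits (1.17%, 0.507% to 2.29%). Each list alone gave the same picture, with 5 of 1810 distal replicate 1 peaks (0.276%) and 6 of 850 distal replicate 2 peaks (0.706%) in a pseudogene. The strongest summit inside a noncoding gene lay in the long noncoding RNA gene AT2G09320 on chromosome 2, with folds of 7.67 and 3.45.

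When these noncoding spans were left out, the distal sequence carried 76.2 regions per Mb (Poisson 95% interval 70.5 to 82.2), against 76.9 (71.8 to 82.3) at 250 to 1000 bp outside genes and 96.7 (89.9 to 104.0) at 1 to 250 bp. Their share of the sequence grew with distance, from 11.3% at 1000 to 1500 bp to 37.8% beyond 5000 bp. Without them the density was 71.3 per Mb at 1000 to 1500 bp and 71.0 at 1500 to 2000 bp. It was 86.7 at 2000 to 3000 bp and 84.0 at 3000 to 5000 bp, and the intervals of these bins overlapped. Beyond 5000 bp the density without noncoding spans was 68.4 per Mb (44.3 to 101.0). How evenly reads aligned over these spans is not given by peak lists, and its part in the difference was not tested.

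MicroRNA genes were reached by 6 distal summits within 1000 bp. Of 152 microRNA genes on the arms with distal sequence that near, 6 had such a summit (3.95%, exact 95% interval 1.46% to 8.39%), against a background of 4.76% of all noncoding genes and pseudogenes so placed, which lies inside the interval. In all, 114 distal regions (16.7%, 14.0% to 19.7%) had some noncoding gene or pseudogene within 1000 bp, while 35.0% of the distal sequence lies that near to one. For transfer RNA genes the count was 1 of 222 (0.450%, 0.0114% to 2.48%).

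The region with the highest lower fold of the 6 was on chromosome 1 at 6219280 to 6220005, 908 bp from MIR159b (AT1G18075), with folds of 4.80 and 3.22. The microRNA miR159 restrains GAMYB-like transcription factors. The region 227 bp from MIR167a (AT3G22886), on chromosome 3 at 8107298 to 8108131, had 4.95 and 2.55, and was the nearest of the 6 to its microRNA gene. The microRNA miR167 targets the auxin response factors ARF6 and ARF8.

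A region 428 bp from MIR157c (AT3G18217), whose product targets SPL genes of the juvenile to adult transition, had folds of 2.92 and 2.39. A region 416 bp from MIR166e (AT5G41905), whose product targets HD-Zip III genes of leaf polarity, had 1.93 and 2.66. The remaining regions lay 646 bp from MIR5665 (3.15 and 3.06) and 870 bp from MIR5016 (1.80 and 1.91). Replicate 1 was much the higher at MIR159b and MIR167a, and replicate 2 was the higher at MIR166e and MIR5016.

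The protein-coding neighbours of the distal regions were then read as gene groups. Of the 8307 arm genes that border a gap with room for a distal region, 1131 (13.6%) had a distal region in such a gap. Long gaps raise this share, so for each group the count that its genes would have at the shares of all genes with gaps of like length is given as well. A neighbour is a gene next to a region, and no regulation is implied by it.

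Among the PIF genes 2 of the 5 with such a gap had a distal region, where gap lengths alone gave 0.682. They were PIL5, described above, and PIF3 (AT1G09530), a factor of seedling light responses, with folds of 1.95 and 3.02 at 1504 bp, in the gap it shares with MYB61. The other 3 genes with such a gap had no distal region, and the exact 95% interval of the share, 5.27% to 85.3%, holds the background of 13.6%.

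Gibberellin oxidase genes had 5 of 14 (35.7%, exact 95% interval 12.8% to 64.9%), where gap lengths gave 3.23, and the background of 13.6% lies within the interval. The synthesis gene GA20OX3 (AT5G07200) had a region at 1881 bp with folds of 5.38 and 3.21. GA3OX1 (AT1G15550), which makes the active hormone, had one at 3270 bp with 3.88 and 3.04. GA2OX7 (AT1G50960), which inactivates precursors, had one at 3035 bp with 5.07 and 2.55. Both synthesis and inactivation were thus represented, with replicate 1 the higher in all 3. Of the cytokinin oxidase genes, which degrade cytokinin, 2 of 4 had a region, where gap lengths gave 1.13. They were CKX3 (2.88 and 2.75) and CKX7 (1.86 and 2.43). The exact 95% interval of the share, 6.76% to 93.2%, holds the background of 13.6%.

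Auxin response factor genes had 5 of 11 (45.5%, 16.7% to 76.6%), where gap lengths gave 2.87. This interval lies above the background of 13.6%, which does not allow for the long gaps of these genes (median 6785 bp), and the share that gap lengths gave lies inside it. ARF6 (AT1G30330), an activator of growth that miR167 targets, had a region 2120 bp away with folds of 5.27 and 2.88. ARF10 (AT2G28350) had 4.17 and 2.60 at 5459 bp, and ARF9 (AT4G23980) had 2.53 and 2.99 at 4201 bp. Aux/IAA repressor genes had 3 of 20, where gap lengths gave 4.74: PAP2 (AT4G29080, also IAA27) at 3.04 and 2.53, and IAA2 and IAA7, which share 1 gap and 1 region at 2.57 and 2.17.

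The other auxin groups lay near the counts of their gap lengths. Auxin synthesis genes had 2 of 10 (2.52 by gap length), YUC2 with 4.98 and 2.75 at 5559 bp and YUC8 with 2.22 and 2.32 at 4652 bp. Auxin transport genes had 1 of 9 (1.60), PIN7 with 2.04 and 2.47. Of the small auxin-induced SAUR genes 6 of 38 had a region (5.65). The neighbours AT4G34770 (SAUR1) and AT4G34760 (SAUR50) share a region with 4.98 and 3.37, and SAUR9 had 2.94 and 2.68.

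Leaf and meristem groups gave small counts. The CIN-class TCP genes of leaf shape had 1 of 8 (1.18 by gap length), TCP5 with 2.90 and 2.09, and the leaf polarity genes had 2 of 13 (2.11), REV with 2.76 and 2.36 and KAN with 3.46 and 1.92. The meristem and boundary genes had 1 of 8 (1.63), STM with 4.52 and 2.56 at 3766 bp. Growth-regulating factor genes had 2 of 6 (1.09), GRF4 (2.87 and 2.60) and GRF2 (4.82 and 2.49). The flowering group had 3 of 11 (1.45), with FT, the mobile flowering signal, at 3.25 and 3.01 in a region 5065 bp away and AP1 at 1.93 and 2.32. Type-A response regulator genes of cytokinin signalling had 1 of 7 (1.05), RR3 with 3.11 and 2.68. SOB3's own AHL family had 2 of 16 (2.61), AHL20 with 2.55 and 2.47 and AT4G17800 (AHL23) with 3.65 and 1.83.

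The large families had counts above those of their gap lengths, but in each of them the share that gap lengths gave lay inside the exact 95% interval of the observed share, so the counts do not set them apart. NAC genes had 13 of 51 (14.3% to 39.6%, with 8.83 genes by gap length), with NAC046 and NAC047 on either side of 1 region at 3.17 and 3.32 and ANAC087 at 5.28 and 3.12. Homeobox genes with an HB or HAT symbol had 10 of 36 (14.2% to 45.2%, with 7.77), with HB6 as above, HB16 at 5.72 and 3.06 and HB5 at 3.496 and 2.99.

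MYB genes had 21 of 93 (14.6% to 32.4%, with 17.96 by gap length), with MYB118 and MYB21 on either side of 1 region at 3.13 and 3.46 and MYB3 at 4.91 and 3.11. WRKY genes had 10 of 49 (10.2% to 34.3%, with 7.85), with WRKY54 at 4.50 and 3.52, WRKY61 at 5.09 and 3.16 and WRKY31 at 3.25 and 3.06. LBD genes had 5 of 24 (7.13% to 42.2%, with 4.62), with LBD38 at 3.02 and 2.95, LBD27 at 2.62 and 2.75 and ASL9 at 2.56 and 2.67.

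Cytochrome P450 genes had 21 of 98 (13.8% to 30.9%, with 15.97 by gap length), with CYP78A7 as above, CYP81F3 at 3.56 and 3.65 and CYP707A3, an abscisic acid hydroxylase gene, at 4.12 and 3.16. Expansin genes, which loosen cell walls, had 4 of 16 (7.27% to 52.4%, with 2.71), with EXPA1 at 3.29 and 3.30, EXPA4 at 3.16 and 3.08 and EXPA15 at 2.52 and 2.88. Ribosomal protein genes, a comparison group, had 1 of 4 (0.631% to 80.6%, with 0.617), RPL10B with 2.37 and 2.51. The groups share genes and regions, and none of these differences was tested.

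Genes next to a distal region more often had a second SOB3-GFP region close by. Of the 1131 genes, 257 (22.7%, exact 95% interval 20.3% to 25.3%) also had a shared region inside the gene or within 1000 bp of it. Of the 7176 genes that border such a gap without a distal region the share was 14.5% (13.7% to 15.3%), and over all 8307 it was 15.6%. These genes share regions, and the difference was not tested. The order held for gaps of 3000 to 5000 bp (22.6% and 14.1%), 5000 to 10000 bp (24.8% and 16.0%) and longer gaps (22.8% and 15.7%), and was the other way for gaps of 2000 to 3000 bp (9.88%, or 8 of 81 genes, and 14.1%).

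The order held in each list on its own. Replicate 1 peaks gave 49.9% (47.8% to 51.9%) for genes next to a distal peak and 33.1% (31.9% to 34.3%) for the rest. Replicate 2 peaks gave 24.7% (22.4% to 27.1%) and 17.2% (16.3% to 18.1%). For shared regions, examples with both kinds were ARF6, ARF10, YUC2, PIN7, TCP5, EXPA1 and KAN. PIL5, FT, STM, GA20OX3, GA3OX1 and GA2OX7 had no shared region inside the gene or within 1000 bp, which does not exclude a peak in a single list.

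Recovery in the other list was the last measure. Of 1810 distal replicate 1 peaks, 687 (38.0%, exact 95% interval 35.7% to 40.2%) overlapped a replicate 2 peak, against 38.5% of all replicate 1 peaks. Of 850 distal replicate 2 peaks, 712 (83.8%, 81.1% to 86.2%) overlapped a replicate 1 peak, against 81.9% of all. Among replicate 1 peaks the share was 40.0% at 250 to 1000 bp, 32.6% at 1 to 250 bp, 27.7% inside genes and 59.9% in the pericentromeres. In replicate 2 it was 82.9%, 86.2%, 85.9% and 74.8%.

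Recovery was higher in the strongest than in the weakest decile of each list. In the decile of replicate 1 peaks with the highest −log10 q, 74.2% (68.1% to 79.6%) of distal peaks had a partner, against 79.1% at 250 to 1000 bp, 79.7% at 1 to 250 bp and 75.6% inside genes. In the weakest decile the shares were 20.8% (15.02% to 27.6%), 14.5%, 9.33% and 11.1%. In replicate 2 all 69 distal peaks of the strongest decile had a partner and 71.0% (60.6% to 79.9%) of those in the weakest, where the share was 69.6% at 250 to 1000 bp, 77.5% at 1 to 250 bp and 84.6% inside genes. In the weakest decile the distal share was thus the highest of the arm classes in replicate 1 and the second lowest in replicate 2.

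**Figure D5:**
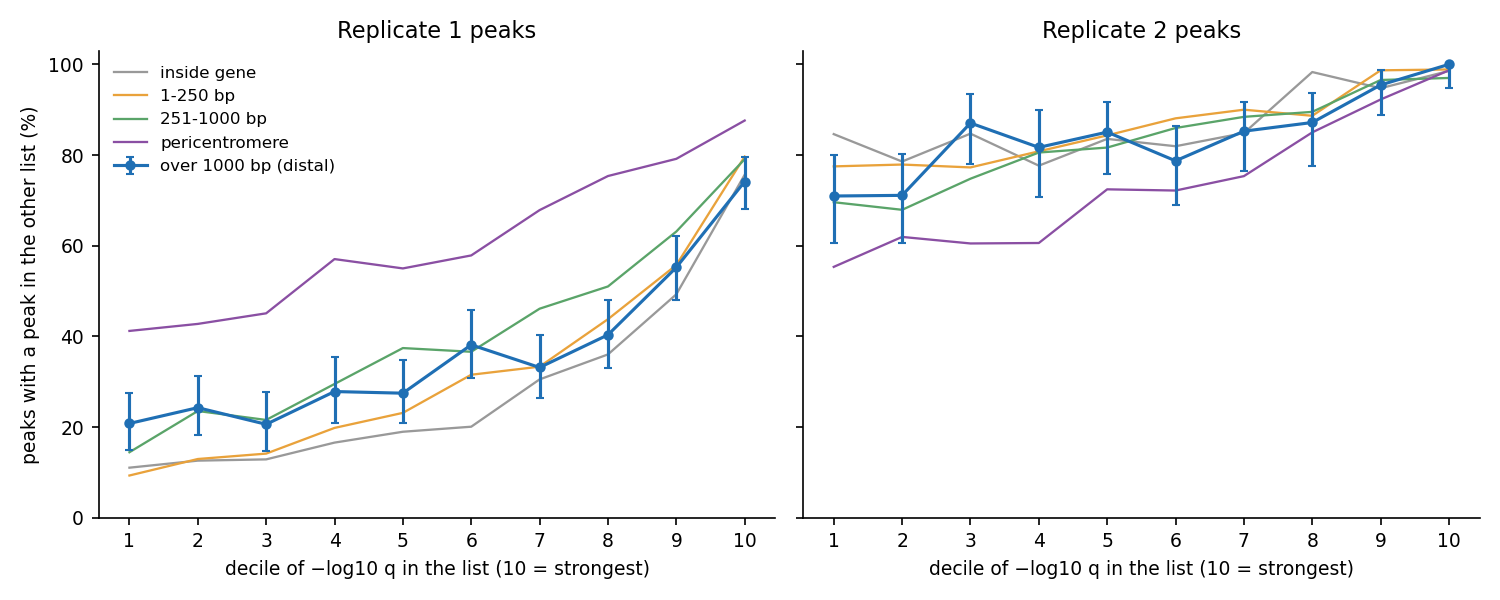
Share of peaks that overlapped a peak of the other list, by decile of −log10 q within the list, for replicate 1 peaks (left) and replicate 2 peaks (right); distal peaks are in blue with exact binomial 95% intervals. The distal share in replicate 1 goes from 20.8% in the weakest decile to 74.2% in the strongest.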

How the data were processed

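Per the submitters' processing notes, the tools were bcl2fastq, Bowtie 0.12.9 and MACS2, with TAIR10 as the build; the version, control and threshold of MACS2 were not found in the labels or headers. Peak names number each replicate separately, so peaks were called per replicate. The deposited fold is a linear ratio at the summit, the deposited −log10 p and −log10 q values are the caller's (lowest −log10 q 1.33 and 1.30), and the deposited score repeats −log10 q. The other deposited columns give positions. The input library enters no comparison.

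Summits were the highest replicate 1 peak of each region. Genes came from the RefSeq table of assembly TAIR10.1 (27444 protein-coding, on chromosomes 1 to 5), whose nuclear coordinates are taken to match TAIR10; it gives spans without strand, so upstream and downstream are pooled. Excluded as pericentromere were 11.5 to 17.7 Mb of chromosome 1, 1.1 to 7.2 of 2, 10.3 to 17.3 of 3, 1.5 to 6.3 of 4 and 9.0 to 16.0 of 5. Sequence per distance class counts gaps between protein-coding genes. Of 24 gene groups matched by locus, symbol or synonym, 24 genes of another kind with the same name (such as 14-3-3 proteins named GRF) were removed by identity after the results were seen, and 1 group and the gene of SOB3 are not reported here. Named were the 10 strongest regions, microRNA genes within 1000 bp, up to 3 genes per group, the 3 most remote regions, the 3 gaps with most regions (ties by strength) and the regions at the threshold. Members and groups were chosen with earlier results of these data known. The planned A+T and motif counts needed sequence and were not run. Densities without noncoding spans and the values per list were added after seeing the data. Python 3.11.15, pandas 2.3.3 and scipy 1.17.1 were used, and the code was tested on simulated peaks.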

Additional observations from a re-analysis of the deposited data

Results flagged for a closer look

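Peaks that stayed outside the shared regions were set aside by the comparisons. More than 1000 bp from protein-coding genes on the arms, 1123 of 1810 replicate 1 peaks had no peak in replicate 2. In replicate 2, 138 of 850 such peaks had none in replicate 1. The shares with a partner were 38.0% and 83.8%, near the 38.5% and 81.9% of all peaks in the lists. These counts thus do not set the distal peaks apart. The distal peaks without a partner had median folds of 2.48 and 2.28, against 2.95 and 2.49 for those with one. They lay a median of 1765 and 1777.5 bp from the nearest gene. The strongest was a replicate 1 peak on chromosome 1 at 29762534 to 29763023, 1262 bp from the nearest of its neighbours BRG2 and AT1G79120, with a fold of 4.79. It was followed by peaks beside FAD6 and SIP3 on chromosome 4 (4.62) and beside Rap2.6L and AT5G13340 on chromosome 5 (4.57).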

How the results depend on the processing

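At −log10 q of at least 10 there were 99 distal regions, with median folds of 3.72 and 3.32, 21 near a noncoding gene, 192 neighbouring genes, and partner shares of 14.9% for replicate 1 and 79.5% for replicate 2 peaks. At 5 or more these were 406 regions, 73, 722 genes, 30.7% and 78.6%. A threshold of 2000 bp gave 294 regions (10.2% of arm regions), 45 near a noncoding gene and 486 genes, and 500 bp gave 1145 (39.8%), 182 and 1885. Distance to any annotated gene lowered the distal share to 19.8%. A reciprocal overlap of 50% lowered the partner shares to 29.6% and 62.8%. Single lists, without replicate 1 or without replicate 2, gave 850 to 1810 regions, shares of 21.6% to 24.3%, 145 to 361 near a noncoding gene, 1335 to 2316 genes, and median folds of 2.62 in replicate 1 and 2.46 in replicate 2. These settings change which peaks or summits are admitted by construction. Of 63 values under alternatives, 35 moved by less than the limits set for them, among them all those without replicate 1. The limits for counts were wide. They took in 535 regions at a reciprocal overlap of 50% and 850 without replicate 1, against 683. They also took in 145 regions near a noncoding gene without replicate 1, against 114. No paired analysis was possible because the design has 1 group of 2 replicates. Depth is unknown, so regions below the peak caller's threshold in 1 list cannot be told from absent ones.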

Other observations

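The following were chosen after their values were seen. The highest folds of replicate 1 among distal regions were on chromosome 3 between GIS (AT3G58070) and AT3G58090, at 8.82 and 3.28, and on chromosome 2 between AT2G41930 and ZFP8 (AT2G41940), at 7.67 and 3.45. GIS and ZFP8 encode related zinc finger proteins of trichome formation. Replicate 2 gave both regions less than the fold of 4 that 13 other distal regions passed in that list.

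Among those 13, the region between the nicotinamidase genes NIC3 and NIC2 on chromosome 5 had 3.55 and 4.66, and the region between CSA1 and DAR4, neighbouring disease resistance genes, had 3.56 and 4.23, so both were higher in replicate 2. Gaps whose neighbours carry symbols of 1 gene series made up 19 of the 110 occupied gaps with such symbols on both sides (17.3%, exact 95% interval 10.7% to 25.7%) and 76 of 631 without a distal region (12.04%, 9.61% to 14.8%). These intervals overlap. Occupied gaps of this kind include those between PP2-B13 and PP2-B14 (lower fold 3.60), and FRO4 and FRO5 (3.58), a pair of ferric reductase genes. Triterpene gene clusters held distal regions as well. The gap between CYP705A5 and CYP708A2, of the thalianol cluster, held 2, with lower folds of 2.88 and 2.15, and the gap between CYP71A16 and MRN1, of the marneral cluster, held 2, with 2.43 and 1.95.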
